A study of Rattus norvegicus with 24 samples.

Results

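The nuclear genes for the subunits of respiratory complexes II, III, IV and V were followed in the hypothalamus of stressed rats that did or did not breathe linalool. The members were the probe sets whose only listed gene symbol began with Sdh, Uqcr, Cox4 to Cox8 or Atp5 and had the form of a subunit name. This gave 49 of the 31042 probe sets tested, for 43 of 14217 genes: 5 probe sets for 4 genes of complex II, 8 for 7 genes of complex III, 16 for 16 genes of complex IV and 20 for 16 genes of complex V. A further 5 probe sets, among them those for Uqcrb, Cox7a2, Atp5mc1 and Atp5mc2, list a second symbol and were left out. The 43 genes lie on 17 chromosomes of the RefSeq gene table of the assembly GRCr8, with at most 9 on one of them.

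RNA of the hypothalamic block of each of 18 male Wistar rats, an outbred laboratory strain, was hybridised to one 3' expression array. The rats, aged 7 weeks per the design text and then acclimatised, formed 3 groups of 6. Control rats were neither restrained nor exposed. Stress rats were restrained for 2 h, and linalool rats underwent the same restraint in a 40 L box into which 20 µL of (R,S)-linalool, a fragrant monoterpene alcohol, had evaporated. A group of unstressed rats with linalool is not part of the comparisons, and the block, taken with a razor blade, holds all its cell types. Control and stress arrays were normalized together by the authors, and the same stress arrays a second time with the linalool arrays. Each comparison was made inside its own set, and because both use the same 6 stress rats they are not independent.

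The complexes of the inner mitochondrial membrane pass electrons from metabolites to oxygen and use the energy to make ATP. Complex II (succinate dehydrogenase) takes electrons from succinate, complex III (the cytochrome bc1 complex) passes them to cytochrome c, complex IV (cytochrome c oxidase) passes them to oxygen, and complex V (ATP synthase) lets protons flow back to make ATP. Complex II is encoded in the nucleus alone, while the others also hold subunits encoded in mitochondrial DNA, which the symbol rule does not reach. Neurons depend on this route for most of their ATP, and several complex IV subunits exist as forms used mainly in muscle, lung or testis.

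Values are log2 signals as deposited, and their spread between rats differs between probe sets by orders of magnitude. A probe set with a residual standard deviation (SD, the spread within groups) under 0.01 log2 units is called compressed here, and any other one open. Differences of compressed probe sets are given as multiples of the residual SD, where 2 means of 6 rats differ with a standard error of 0.577. In the control and stress set 14 of 49 members were open (28.6%, against 16.5% of all probe sets), and in the stress and linalool set 24 were (49%, against 16.3%). Of the 49 members, 13 were open in both sets, 24 compressed in both, 11 open only in the second and 1 (Atp5po) only in the first. Complex II had no open probe set in either set, complex III had 6 of 8 in the second, complex IV 6 of 16 and complex V 12 of 20. A call on a compressed probe set therefore says that the group means differed against the spread within groups. It does not say that the groups were free of overlap, and gives no size on the log2 scale.

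**Figure D1:**
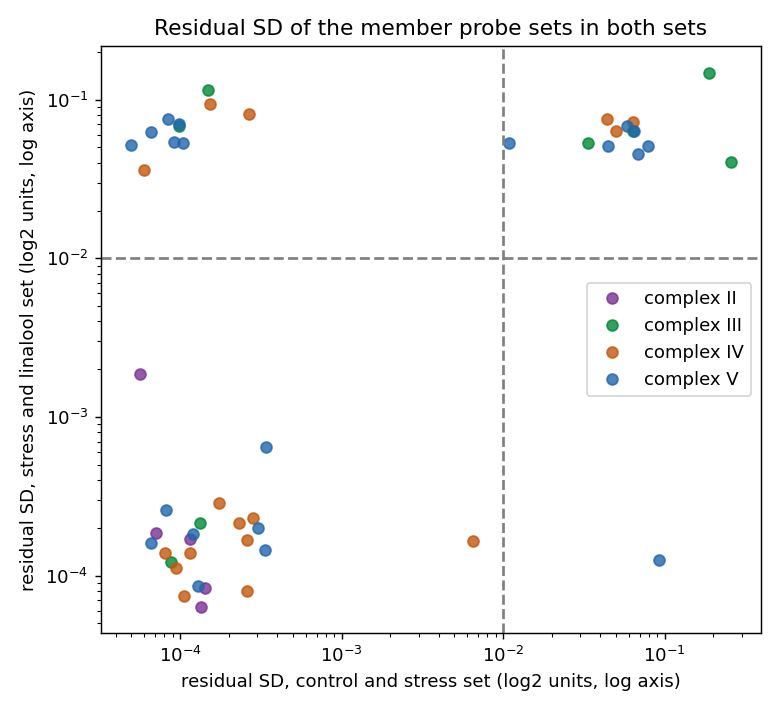
Residual SD of each of the 49 member probe sets on the deposited log2 scale, in the control and stress set (horizontal, log axis) and in the stress and linalool set (vertical, log axis), coloured by complex. The dashed lines mark 0.01, and 11 members lie above the line only in the second set.

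Several facts of the whole data touch the results on members. Of 9 hypothalamic markers, 7 (Avp, Gal, Hcrt, Nkx2-1, Oxt, Pmch and Trh) lay at or above the median level of all probe sets, and Pomc and Sim1 lay below it. Among array control probe sets, 27 of 57 passed the test with linalool (17 higher, 10 lower) and 1 of 57 with stress. The bacterial and phage controls, which carry no rat RNA, accounted for 19 of those 27 (15 higher, 4 lower, of 45). Odour and any difference in how the arrays of the linalool rats were handled cannot be told apart. In a tissue block, fewer cells of a type and less RNA per cell cannot be told apart either.

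The first comparison asked whether restraint moved the members. With stress 0 of 49 members passed an adjusted p of 0.05 (limma, Benjamini-Hochberg over all probe sets), where 0.554% of all probe sets did. At an unadjusted p under 0.05 there were 4 members (Atp5mg, Cox4i2, Cox7b2 and the second probe set of Atp5po), or 8.16% of them, against 16.0% of all probe sets. No member separated the groups without overlap, where 1.78% of all probe sets did. The median difference was -0.00917 residual SDs over the members and 0.12 over all probe sets, and the members ran from -1.46 to 1.5. The medians by complex were 0.149 for II, -0.0954 for III, 0.127 for IV and -0.0882 for V.

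The largest differences among open members after restraint were those of Uqcrfs1 and Atp5mg. Uqcrfs1, the Rieske iron-sulfur protein of complex III, ran from 10.74 over a median of 11.01 to 11.36 in controls and from 11.01 over 11.18 to 11.33 in stressed rats. The stress values lay inside the control range, with a difference of 0.16 and an adjusted p = 0.462 (limma). Atp5mg, subunit g in the membrane part of ATP synthase, ran from 11.58 over 11.67 to 11.75 in controls and from 11.47 over 11.57 to 11.67 under stress, and the groups overlapped. Its difference was -0.10 (SE 0.0386, limma adjusted p = 0.250). Uqcrc1 and Cox7c, described further on, had medians of 11.59 and 11.61 in controls and 11.61 and 11.60 under stress. These differences miss the threshold, which does not show that the levels were alike. Marker means per rat, in residual SDs from the mean of all 12 arrays, also differed. Neuron markers ran from -0.73 to -0.16 in controls and from 0.01 to 0.59 under stress. Meningeal markers ran from -1.08 to 2.26 and then from -0.93 to -0.42, with controls 4, 5 and 6 at 0.87, 2.26 and 2.05. The part of these shifts in the members' differences was not tested.

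The second comparison asked how rats with linalool differed from rats under stress alone. On the deposited values members of all 4 complexes were called higher with linalool: 25 of 49 rose (51%), 2 fell (Cox6b1 and Atp5f1d) and 22 did not pass. In complex II the only calls were those of the compressed Sdhb and Sdhc, and both differences changed sign after quantile normalization. Of all probe sets 25.0% passed, 14.2% higher and 10.8% lower, and among the open probe sets alone 19 of 24 members rose and 1 fell, against 28.4% and 21.3% of all open probe sets. Of the 25 compressed members 6 rose and 1 fell, against 11.4% and 8.79% of all compressed probe sets. Of the 39 members at or above the median level 22 rose and 2 fell, against 21.6% and 12.6% of all probe sets so high. The median difference was 1.79 residual SDs over the members and -0.0136 over all probe sets, and 42 of 49 differences were above 0. With 1 probe set a gene, 24 of 43 member genes rose (55.8%) and 2 fell (4.65%), against 19.3% and 9.08% of all genes. In 18 members all linalool rats lay above all stress rats, and in 1 (Atp5f1d) all lay below, where 7.56% and 4.36% of all probe sets did so. These shares describe the members, which were compared with the rest by no test.

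Set side by side, 50% to 55% of the probe sets of complexes III, IV and V rose, and 40% of those of complex II. Of all probe sets 14.2% rose, or 28.4% of the open and 11.4% of the compressed ones. The open share was 0% in complex II, 75% in III, 37.5% in IV and 60% in V. The shares by complex are therefore not on a like base. In complex II 2 of 5 probe sets rose, in complex III 4 of 8, in complex IV 8 of 16 with 1 lower, and in complex V 11 of 20 with 1 lower. Their median differences were 0.451, 2.07, 1.75 and 2.06 residual SDs. Counted by gene, 2 of 4, 4 of 7, 8 of 16 and 10 of 16 rose, beside 19.3% of all genes. Among open probe sets the median log2 difference was 0.29 in complex III, 0.23 in complex IV and 0.18 in complex V. Complex II rests on 4 genes, and the complexes were not tested against each other.

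**Figure D2:**
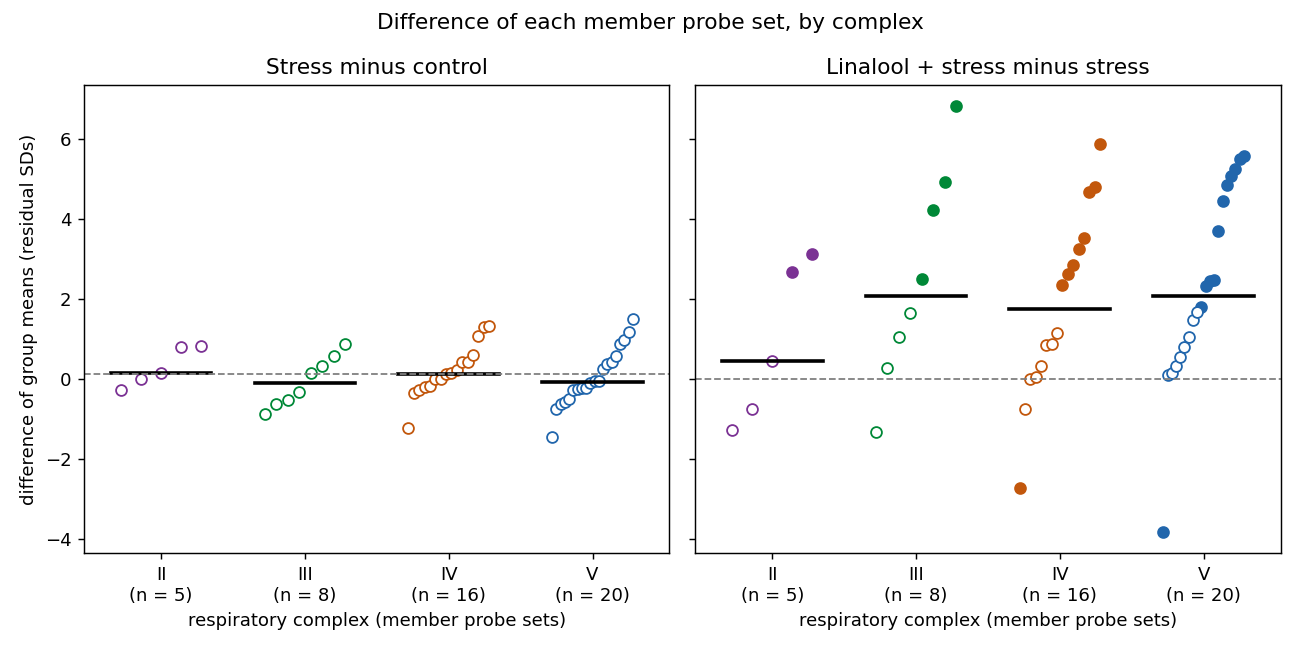
Difference between group means, in residual SDs, of each member probe set by complex, for stress against control and for linalool against stress; each point is 1 probe set, the bars are medians by complex, the dashed line is the median of all probe sets, and filled points passed an adjusted p of 0.05. With stress the points lie between -1.46 and 1.5, and with linalool they lie between -3.83 and 6.82 with medians of 0.451 (II), 2.07 (III), 1.75 (IV) and 2.06 (V).

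Complex II rose in 2 of its 4 genes. Sdhb, the iron-sulfur subunit that carries electrons inside the complex, was compressed, and its values are given as residual SDs from the stress mean. Stress rats ran from -1.35 over a median of -0.10 to 1.81, and linalool rats from 2.27 over 2.80 to 4.51. The groups did not overlap, and the difference was 3.11 residual SDs (limma adjusted p = 0.00332). Sdhc, one of the membrane anchors, rose by 2.68 residual SDs (adjusted p = 0.00839, and 0.348 with trend and robust moderation), with stress rats from -1.07 to 2.06 and linalool rats from 1.52 to 3.94, so that the groups overlapped. Sdha, the flavoprotein that oxidises succinate, differed by 0.451 (adjusted p = 0.605). Sdhd, the other anchor, differed by -1.29 on its first probe set and -0.752 on its second (adjusted p = 0.130 and 0.368), neither past the threshold, though the first passed as lower without linalool rat 1 (0.0252). After quantile normalization of the arrays the differences of Sdhb and Sdhc turned to -0.012 and -0.019 log2 units (limma adjusted p = 0.0791 and 0.0229), so the direction in complex II rests on the deposited scaling.

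Complex III rose in 4 of its 7 genes, all of them open. Uqcrc1, a core protein of the matrix side, ran from 11.58 over a median of 11.64 to 11.78 in stress rats and from 11.98 over 12.01 to 12.05 in linalool rats. All linalool rats lay above all stress rats, and the mean went from 11.65 ± 0.0701 to 12.02 ± 0.0283 (SD, n = 6 each; difference 0.36, SE 0.0302, limma adjusted p = 8.35e-05). Uqcr10, a small subunit, ran from 10.97 over 11.09 to 11.20 and then from 11.37 over 11.38 to 11.47 (difference 0.31, SE 0.0358, adjusted p = 0.000324 by limma), without overlap. Uqcrh, the acidic hinge protein by the cytochrome c docking site, ran from 11.40 over 11.46 to 11.52 and then from 11.63 over 11.74 to 11.89, again without overlap. It rose by 0.29 (SE 0.0386, limma adjusted p = 0.000695). Uqcrq, a small subunit beside cytochrome b, rose by 0.29 (SE 0.0655, limma adjusted p = 0.00993), with its lowest linalool rat at 11.55 and its highest stress rat at 11.56.

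The other genes of complex III did not pass. Uqcr11, the smallest subunit, differed by 0.07 (limma adjusted p = 0.0561), and passed without stress rat 2 (0.0372) or without linalool rat 4 (0.0137). Uqcr11 also passed with median centring (limma adjusted p = 0.0358) and with low probe sets left out (0.0423). With 1 probe set or the mean per gene it passed narrowly (0.0499 and 0.0489). Uqcrc2, the second core protein, differed by 0.273 residual SDs (limma adjusted p = 0.767). After quantile normalization Uqcrc2 passed as lower (-0.025 log2 units, limma adjusted p = 0.000315). Uqcrfs1, the catalytic iron-sulfur protein, had the other sign: stress rats ran from 11.05 over 11.23 to 11.35 and linalool rats from 10.79 over 11.11 to 11.15. Its groups overlapped and the difference was -0.20 (SE 0.0837, limma adjusted p = 0.111, and 0.0451 with arrays centred on their medians).

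Complex IV rose in 8 of its 16 genes, and 6 of the 8 were open. Cox7c ran from 11.45 over 11.55 to 11.64 in stress rats and from 11.83 over 12.01 to 12.07 in linalool rats, with no overlap. Its mean went from 11.55 ± 0.0644 to 11.99 ± 0.0853 (SD, n = 6 each; difference 0.44, SE 0.0427, limma adjusted p = 0.000147). Cox5a, a matrix-side subunit, ran from 8.18 over 8.28 to 8.38 and then from 8.60 over 8.73 to 8.85, and the groups were apart (difference 0.45, SE 0.0528, limma adjusted p = 0.000368). Cox6c rose by 0.17 (SE 0.0204), Cox6a1, the form of subunit VIa found in brain, by 0.22 (SE 0.036) and Cox7b by 0.23 (SE 0.0408), each with all linalool rats above all stress rats. Their limma adjusted p-values were 0.000427, 0.00178 and 0.00266. Cox7a2l, a relative of subunit VIIa that joins complexes III and IV into supercomplexes, rose by 0.23 (SE 0.0458, limma adjusted p = 0.00526), with its lowest linalool rat at 11.47 and its highest stress rat at 11.49.

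The 10 compressed genes of complex IV gave 2 calls higher and 1 lower. Cox6b1, which lies where complex IV forms dimers, fell by 2.73 residual SDs (limma adjusted p = 0.00732, and 0.405 with trend and robust moderation), with linalool rats from -3.62 to -1.20 and stress rats from -1.30 to 1.97, an overlap at the edge. With arrays centred on their medians its difference was 0.0074 log2 units (limma adjusted p = 0.0358), the other direction. Those that did not pass included main subunits: Cox4i1 differed by 0.0558, Cox5b by 0.875 and Cox8a by -0.765 residual SDs (limma adjusted p = 0.955, 0.297 and 0.361). After quantile normalization Cox4i1 and Cox5b passed as lower (-0.031 and -0.027 log2 units, limma adjusted p = 0.0047 and 0.000243). The forms known from other tissues lay below the median level of all probe sets: Cox4i2 (lung), Cox6a2, Cox7a1 and Cox8b (heart and skeletal muscle), and Cox6b2 and Cox7b2 (testis). Of these 6, Cox6a2 and Cox6b2 rose by 2.35 and 2.61 residual SDs (limma adjusted p = 0.0135 and 0.0089), calls that were lost after quantile normalization (0.110 and 0.0609), and the other 4 did not pass. Levels so low on the array may hold little signal of the gene itself, since no background signal is given. None of 5 striated muscle markers passed, but only 1 of the 5 lay at or above the median level, so the same limit holds for them.

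Complex V rose in 10 of its 16 genes and fell in 1. The catalytic head gave calls in both directions. Atp5f1b, the beta subunit that forms ATP, ran from 12.72 over 12.76 to 12.89 in stress rats and from 12.99 over 13.03 to 13.05 in linalool rats, without overlap (difference 0.25, SE 0.0287, limma adjusted p = 0.000354). Atp5f1e, the epsilon subunit of the central stalk, rose by 0.32 (SE 0.0353, limma adjusted p = 0.000298), and Atp5f1c, the gamma subunit that turns inside the head, by 0.16 (SE 0.0384, limma adjusted p = 0.0138). Atp5f1d, the delta subunit that sits beside epsilon at the foot of the same stalk, fell: stress rats ran from 11.78 over 11.85 to 11.91 and linalool rats from 11.53 over 11.62 to 11.67. Every linalool rat lay below every stress rat, and the mean went from 11.85 ± 0.057 to 11.60 ± 0.0692 (SD, n = 6 each; difference -0.24, SE 0.0359, limma adjusted p = 0.00114). Atp5f1a, the alpha subunit, was compressed and differed by 0.785 residual SDs (limma adjusted p = 0.347). After quantile normalization Atp5f1a passed as lower (-0.031 log2 units, limma adjusted p = 0.00344).

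In the peripheral stalk, which holds the head still, 3 of 4 genes rose. Atp5pd (subunit d) rose by 0.23 (SE 0.0293), Atp5pb (subunit b) by 0.13 (SE 0.03) and Atp5pf (coupling factor 6) by 0.13 (SE 0.0424), with limma adjusted p-values of 0.000527, 0.0104 and 0.0408. The groups of Atp5pd did not overlap, and those of the other two did. The calls of Atp5pb, Atp5pf and Atp5f1c were lost after quantile normalization (limma adjusted p = 0.0614, 0.0702 and 0.0648). That of Atp5pf was also lost without any 1 of stress rats 1, 4, 5 and 6 or linalool rats 2, 3, 5 and 6 (limma adjusted p from 0.0504 to 0.0828). Atp5po, the protein that caps the stalk, differed by 0.308 residual SDs (limma adjusted p = 0.736).

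In the membrane part 4 of 6 genes rose. Atp5me (subunit e) ran from 10.53 over 10.58 to 10.74 in stress rats and from 10.85 over 10.98 to 11.04 in linalool rats (difference 0.37, SE 0.0398, limma adjusted p = 0.000259). Atp5mk, a protein of the ATP synthase dimer, ran from 11.48 over 11.61 to 11.68 and then from 11.86 over 11.92 to 11.94. Both genes had all linalool rats above all stress rats. The mean of Atp5mk went from 11.61 ± 0.0694 to 11.91 ± 0.0335 (SD, n = 6 each; difference 0.30, SE 0.0308, limma adjusted p = 0.000191). Atp5mf (subunit f) rose by 0.20 (SE 0.0303, limma adjusted p = 0.00139), and the compressed Atp5mpl by 2.46 residual SDs (limma adjusted p = 0.0119; -0.0085 log2 units and 0.280 after quantile normalization). Atp5mg and Atp5mc3, a gene of the proton-carrying c ring, differed by 0.07 and 0.03 (limma adjusted p = 0.0815 and 0.530). Atp5mg passed without stress rat 2 (0.0491), without linalool rat 3 (0.0397), without linalool rat 4 (0.0299) or with median centring (0.0358). Atp5mc3 turned to -0.02 after quantile normalization (limma adjusted p = 0.786).

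Atp5if1, the protein that blocks ATP hydrolysis when the proton gradient fails, gave different answers on its 3 probe sets. The one with the highest signal differed by 0.0841 residual SDs (limma adjusted p = 0.930). The second, at a level of 7.49 and so below the median of all probe sets, had all linalool rats above all stress rats and a difference of 5.49 residual SDs (limma adjusted p = 0.000212). The third, also low, differed by 0.150 (limma adjusted p = 0.874). The gene was counted by its first probe set. The second probe sets of Uqcrc2, Atp5me and Atp5po did not pass (differences of 1.04, 1.66 and 1.04 residual SDs, limma adjusted p = 0.209, 0.0563 and 0.211), so that Atp5me, like Atp5if1, had calls that differed between its probe sets.

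**Figure D3:**
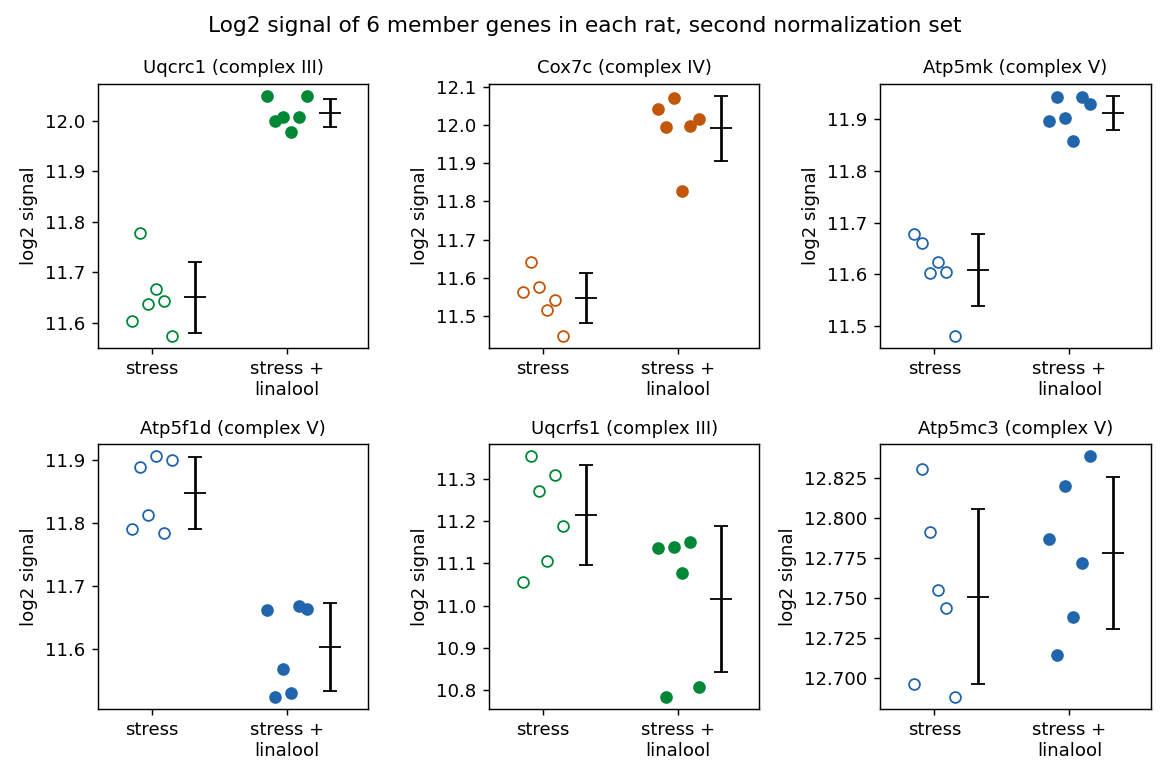
Log2 signal of 6 member genes in each stress rat and each linalool rat of the second normalization set, with group means and SD bars; each panel has its own log2 axis, which does not start at 0. The groups are apart in Uqcrc1 (difference 0.36), Cox7c (0.44), Atp5mk (0.30) and Atp5f1d (-0.24); those of Uqcrfs1 and Atp5mc3 overlap. The genes were chosen after their values were seen.

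The spread between rats of the same group was shared among members of different complexes. Residuals of the 24 open members in the stress and linalool set had a mean pairwise correlation of 0.440 (0.440 within complex III, 0.443 within IV and 0.438 within V), against 0.0393 over all open probe sets. These correlations run over the same 12 arrays, so the members are not independent measurements of a difference. Stress rat 2 was the highest of its group in 19 of the 24, where it was so in 29.6% of all open probe sets, and stress rat 6 was the lowest in 14. In the control and stress set the 14 open members had a mean pairwise correlation of 0.469, and stress rat 2 was the highest in 11 of them. Averaged over all members, the rats ran from -1.62 to 0.15 residual SDs under stress and from 0.32 to 1.88 with linalool. These averages are taken from the mean of all 12 arrays and not from the stress mean.

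**Figure D4:**
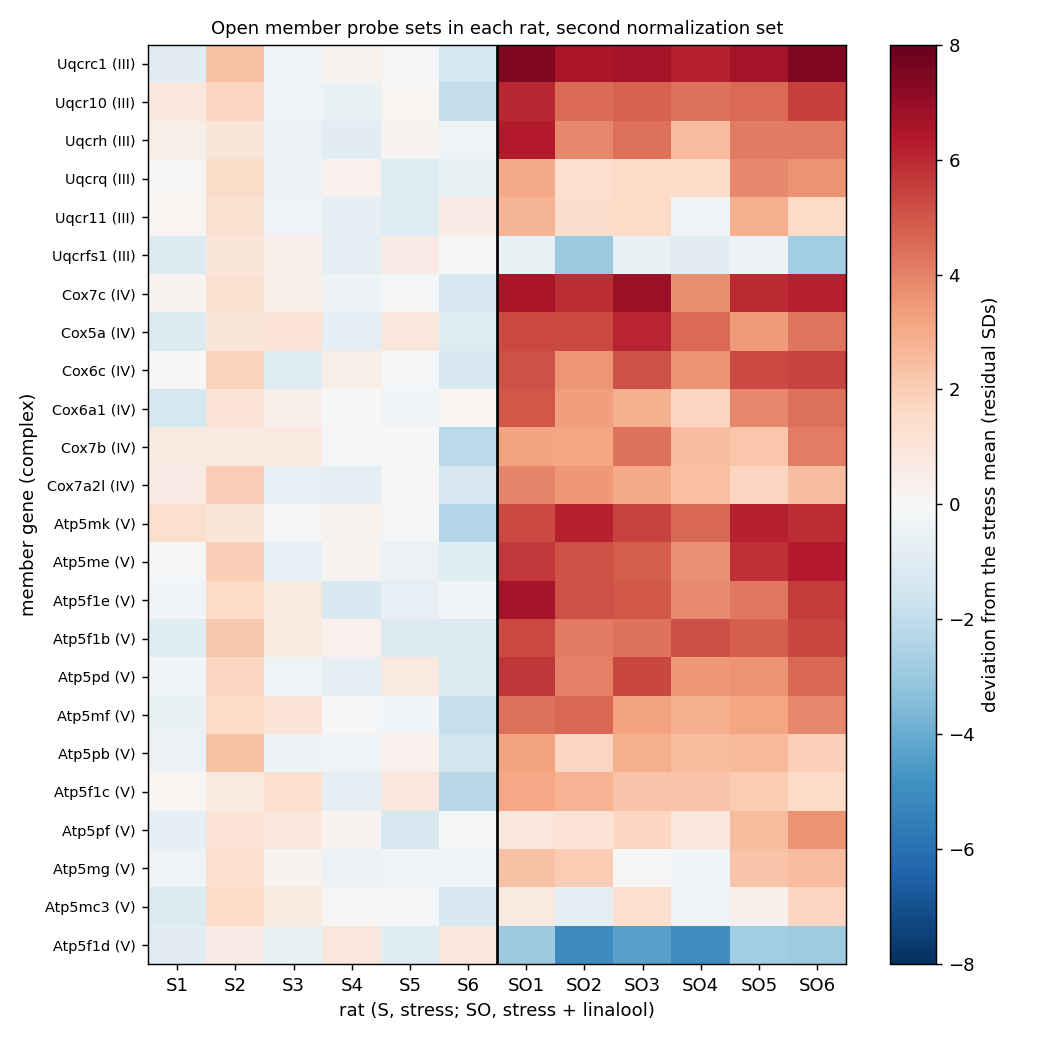
Deviation from the stress mean, in residual SDs, of the 24 open member probe sets (rows, by complex) in each rat of the second normalization set (columns; S, stress; SO, stress with linalool). The linalool columns are above the stress columns in most rows, Atp5f1d is the row that fell (-3.83 residual SDs), and Uqcrfs1, not past the threshold, has the same sign (-1.34).

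Other mitochondrial genes were read from lists that were compiled with earlier results of these data known. Their counts stand beside 19.3% of all genes that rose with linalool and 9.08% that fell. Of 35 complex I genes 24 rose (68.6%) and 1 fell (2.86%), led by Ndufa3 (0.41, SE 0.0232, limma adjusted p = 1.89e-05). Of 12 citrate cycle genes 7 rose (58.3%) and none fell. Among those that rose were Idh3g, a subunit of isocitrate dehydrogenase (0.32), and Suclg1 of succinyl-CoA ligase (0.21), with limma adjusted p = 0.000118 and 0.000775. Of 12 carriers and other membrane proteins 5 rose (41.7%) and 3 fell (25%). The phosphate carrier Slc25a3 rose by 0.32 (limma adjusted p = 0.000143). The ADP/ATP carriers Slc25a5 (-0.17, limma adjusted p = 0.019) and Slc25a4 and the cristae protein Immt fell, the last 2 on compressed probe sets. The carriers that supply ATP synthase with its substrates thus had both directions. Cyc1, the cytochrome c1 subunit of complex III, which the symbol rule does not reach, differed by -0.314 residual SDs and was not called. With stress 0 genes of these lists passed, where 0.401% of all genes were called higher and 0.197% lower.

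Factors that build or regulate the complexes are given beside the share of all genes. Of 32 assembly factors 9 rose and 3 fell (28.1% and 9.38%), beside the 19.3% and 9.08% of all genes. Pet100, which helps to build complex IV, rose by 0.31 (limma adjusted p = 0.000739), and Uqcc2, which helps to build complex III, fell by 0.23 (limma adjusted p = 0.00265). Of 14 transcription and biogenesis regulators 4 rose and 1 (Pprc1) fell (28.6% and 7.14%). Tfam, which packages and transcribes mitochondrial DNA, rose by 0.19 (limma adjusted p = 0.00294), and Gabpb1, a subunit of an ETS factor, was called higher by 3.79 residual SDs (limma adjusted p = 0.00167). Ppargc1a, the coactivator of mitochondrial biogenesis, differed by -0.866 residual SDs and was not called. The median over the regulators was -0.144 residual SDs and over the assembly factors 0.691.

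Promoter sequences from RefSeq (GRCr8) were read for known sites of such factors, since the members moved largely one way. The table held 38 of the 43 genes, each with 250 bases before and 50 after the start. Searched on both strands, the NRF1 motif (GCGC, then A and any base, then GCGC) was in 7 of the 38 (18.4%), against 8.5% of the 11700 promoters of genes on the array and 4.71% of all 27457. The ETS motif CCGGAAG was in 13 (34.2%, against 15.1% on the array and 9.22% of all), the YY1 motif AAGATGGCG in 3 (7.89%, against 3.14% and 1.93%) and the ERR motif TCAAGGTCA in 2 (5.26%, against 0.214% and 0.412%). By call, ETS was in 6 of 21 that rose and 7 of 17 others, NRF1 in 4 and 3, YY1 in 3 and 0, and ERR in 0 and 2. These splits were not tested. The member with the smallest p of each complex is printed to show such sites, over 130 bases before and 20 after the start on the strand of the gene, with motif letters in capitals. Sdhb is at chr5:158547804-158547953 (+), with ETS. Uqcrc1 is at chr8:118468093-118468242 (+), with NRF1 on the other strand and then YY1 across the start. Cox7c is at chr2:18579151-18579300 (-), with none of the 4. Atp5mk is at chr1:255922028-255922177 (-), with ETS on the other strand.
Sdhb: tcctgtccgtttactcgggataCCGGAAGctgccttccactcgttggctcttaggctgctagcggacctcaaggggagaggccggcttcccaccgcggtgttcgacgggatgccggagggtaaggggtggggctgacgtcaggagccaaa
Uqcrc1: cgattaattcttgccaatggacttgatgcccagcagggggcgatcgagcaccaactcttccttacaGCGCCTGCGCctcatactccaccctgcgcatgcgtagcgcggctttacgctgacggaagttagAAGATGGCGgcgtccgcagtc
Cox7c: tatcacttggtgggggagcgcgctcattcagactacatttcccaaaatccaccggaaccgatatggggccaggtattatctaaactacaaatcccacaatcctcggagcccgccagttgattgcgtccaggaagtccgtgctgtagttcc
Atp5mk: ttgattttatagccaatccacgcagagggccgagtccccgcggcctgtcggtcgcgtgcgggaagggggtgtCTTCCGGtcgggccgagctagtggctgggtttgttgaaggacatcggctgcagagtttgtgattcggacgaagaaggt
A match is a run of letters and was not tested as a site, and Cox7c, among the largest differences, holds none of these letters.

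Members are short genes, and calls with linalool went with gene span. With all genes in 4 equal groups by span, 22.9% of the shortest group rose and 6.52% fell, against 11.7% and 13.9% of the longest group. Of the 43 member genes 28 lay in the shortest group and 1 in the longest. Of members 55.8% rose, beside 22.9% of the shortest group. The part of gene span in the members' difference was not tested.

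**Figure D5:**
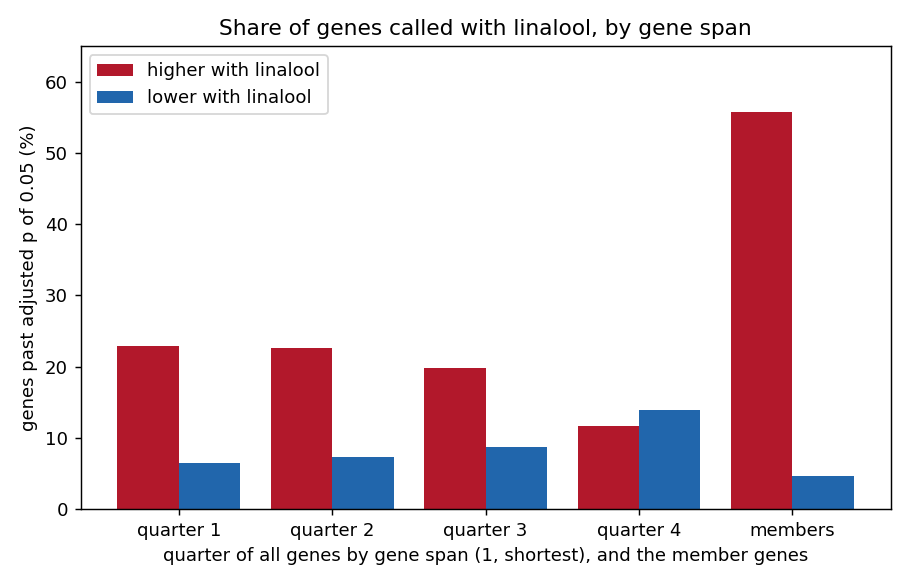
Share of genes (%) past an adjusted p of 0.05 with linalool, higher and lower, in 4 equal groups of all genes by gene span (1, shortest) and among the 43 member genes. The higher share goes from 22.9% in the shortest group to 11.7% in the longest, and is 55.8% among members.

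Other measures moved with the linalool groups too. The beta-actin control gave a 3' minus 5' signal of 1.48 ± 0.0718 in stress and 1.28 ± 0.0335 in linalool rats, and that of GAPDH was 0.448 ± 0.0756 and 0.551 ± 0.0308 (SD, n = 6 each), so the controls moved in opposite directions. Marker counts stand beside 19.3% of all genes that rose and 9.08% that fell. Means per rat are in residual SDs from the mean of all 12 arrays. Among neuron markers 2 of 10 fell (Syt1 and Rbfox3) and none rose. Their mean per rat ran from 0.02 to 0.88 under stress and from -1.30 to 0.25 with linalool. Of 6 thalamus markers 3 fell, with a mean from -0.71 to 2.48 and then from -1.74 to 0.09, and both blood markers rose (Alas2 and Hbb), from -2.71 to -0.53 and then from -0.40 to 2.95. Among astrocyte markers 1 of 7 rose and 1 fell, among microglia 2 of 6 rose, among oligodendrocyte 1 of 6 fell, among endothelial 1 of 7 and meningeal 1 of 14 rose, and 0 of 5 choroid plexus and 0 of 9 hypothalamic markers passed. The part of these shifts in the members' difference was not tested. With the mean of the 57 array controls as a covariate 26 members were called higher and 2 lower. Single controls moved in both directions, and their mean ran from -0.53 to 0.62 under stress and from -0.40 to 0.74 with linalool. With groups so alike in that mean, the fit could change few calls and does not measure the part of array handling.

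The count of members depended on scaling for compressed probe sets. After quantile normalization 17 members were called higher and 7 lower, and 16 of the 19 open members that rose were still called higher. The 8 that were no longer called higher were the 8 named above with their complexes. Of all 31042 probe sets 2608 were called after quantile normalization, and 58.6% of those calls were higher. With each array centred on its median 46 were higher and 2 lower, while 94.9% of all calls were then higher against 56.7% as deposited. Leaving out any 1 of the 12 rats gave 24 to 27 higher and 2 to 3 lower.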

How the data were processed

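The deposited file gives the authors' log2 signal of each probe set on each array. Per the series design text, control and stress arrays were normalized as one set, and stress and linalool arrays as another. Per the labels' protocols, total RNA was amplified and labelled with biotin. How probes were summarised is not given in the sources, and that the unit is log2 was judged by the values' range. No value column was left unused, and control and linalool arrays were not set against each other.

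Of 31099 probe sets, 57 array controls were left out of the tests. Of the rest, 20826 had 1 gene symbol, 436 several and 9780 none in the platform table. A gene with several probe sets was counted by the one with the highest mean. All 43 member genes matched the RefSeq gene table.

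Each comparison was fitted over all 31042 probe sets with limma 3.58.1 (lmFit, eBayes, two-sided) in R 4.3.3, with Benjamini-Hochberg adjustment and a threshold of 0.05. The procedure was tested on simulated data in which probe sets varied independently, unlike the members. It recovered 13.2% (stress set) and 10.4% (linalool set) of shifts of 2 residual SDs. Of shifts of 4 residual SDs it recovered 85.6% and 84.8%. False calls were 4.35% and 5.84% of the calls. Each array is a different rat, and precision is limited by the number of arrays.

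Members, gene lists, motifs and the residual SD of 0.01 were chosen with earlier results of these data known. The naming rule covered a fixed set of subunits and, per complex and direction, the genes with the smallest p past the threshold. From other lists it took the genes with the smallest p. Others were added outside that rule with their values known: the remaining members that passed, some that did not, and a few list genes. Alternatives were quantile normalization, median centring, a filter on low probe sets, 1 probe set or the mean per gene, other moderation, a replicate block, marker or array control covariates, and leaving out rats.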

Additional observations from a re-analysis of the deposited data

Results flagged for a closer look

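In 15 of 172 member groups of 6 rats (8.72%) 1 rat stood apart by Dixon's criterion, where chance gives about 1 in 20. Members vary together, and the stress arrays were counted once in each set. These are therefore not 15 separate events, and their share cannot be held against 1 in 20. Among open members, Uqcr11 was lowest in control rat 1 (11.37, next lowest 12.15) and Cox7c in linalool rat 4 (11.83). Cox7b was lowest in stress rat 6 in both sets (11.88 in the set with controls and 11.91 in the set with linalool). The other members here were compressed in the set concerned, so that the gap is a small part of a log2 unit. In control rat 2 the highest values of the group were those of Sdhb (11.62), Uqcrc2 (11.88), Cox4i1 (12.01) and Atp5mf (11.98). Uqcrc2 was lowest in stress rat 6 in both sets (11.88 and 11.92), and Cox5b was highest in stress rat 2 in both sets (11.83 and 11.89). Cox7a2l was lowest in control rat 3 (11.35). Cox4i2 was highest in stress rat 6 (7.40) and Cox8b in linalool rat 1 (7.02).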

How the results depend on the processing

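With stress 0 members passed under every alternative that was run. With linalool, 27 members passed. Median centring gave 48, leaving out any 1 rat 26 to 29, and the other alternatives 22 to 28. Quantile normalization turned Cox4i1 (-0.031), Atp5f1a (-0.031), Sdhc (-0.019), Sdhb (-0.012), Uqcrc2 (-0.025), Cox5b (-0.027) and Atp5mpl (-0.0085), all compressed. Of these, Cox4i1, Atp5f1a, Sdhc, Uqcrc2 and Cox5b then passed as lower. Without passing in either form, the compressed Sdha (-0.0072) and Atp5po (-0.0070) and the open Atp5mc3 (-0.019) turned too. Median centring turned Cox6b1 (0.0074), Cox7b2 (0.0076), Cox8a (0.0075) and Sdhd (0.0075). Median centring moved all compressed probe sets by nearly the same small amount, at most 0.0097 log2 units in the median. Residuals of same-numbered rats correlated at -0.105 to 0.182 in the linalool set, and at 0.0755 to 0.223 in the control set, where 4 of 6 were above 0.1 and 3 of 6 were closest to their own number. Not every pair being above 0.1, the numbers were not taken as a pairing, which for the control set is a hint left unsettled. With a replicate block 22 members passed with linalool (21 higher, 1 lower; Atp5pf, Uqcrq, Cox6b2, Atp5pb and Cox6b1 lost their calls, adjusted p = 0.111, 0.0711, 0.0652, 0.0518 and 0.0603 by limma) and 0 with stress, and all probe sets called went from 172 to 16 with stress. The stress count over all probe sets ran from 24 to 205 without any 1 rat, was 1 without controls 4, 5 and 6 and 0 with a meningeal marker score as a covariate (77 after quantile normalization, 92 after median centring, 101 and 91 with 1 probe set or the mean per gene). All probe sets called with linalool were 2608 after quantile normalization and 28990 after median centring, against 7763. The cause was not tested.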
